A study of Mus musculus with 4 samples.

Results

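The genes described here are 39 enzymes, regulators and transporters of glycolysis, pyruvate entry into mitochondria and the citric acid cycle, chosen by name from a total of 21755 protein-coding genes on the autosomes and the X chromosome. Their promoter marking was read from chromatin immunoprecipitation with an H3K27ac antibody and sequencing. H3K27ac is an acetylated form of histone H3 that lies on active promoters and enhancers. The tissue was left cerebral cortex from female mice of the strain B6CASTF1/J at the age of 2 months. These animals are the first-generation offspring of C57BL/6J crossed with CAST/EiJ, so each carried a copy of either parental genome. The 4 samples were 2 technical libraries of pool I and 2 of pool J, and each pool combined 4 left cortex biosamples. There was no second tissue, genotype or treatment, so the comparisons are between the members and all coding genes, between isoforms of the same step, and between the pools, each as a description without a p-value.

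Glycolysis splits glucose into pyruvate in the cytosol, and lactate dehydrogenase converts pyruvate and lactate into each other. The mitochondrial pyruvate carrier and the pyruvate dehydrogenase complex pass pyruvate on as acetyl-CoA to the citric acid cycle, whose dehydrogenases feed the respiratory chain. The brain depends largely on glucose, and for several steps neurons and astrocytes use other isoenzymes than muscle or liver.

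The values come from peak lists on mm10, which give for each peak a signal from the authors' peak caller, a width and a summit. A peak was counted as a promoter peak when it reached within 1000 bp of a transcription start site of the gene in the GENCODE vM21 basic annotation, and a gene took its promoter peak with the highest signal. Signals were ranked as a percentile among coding genes with a promoter peak in the same list. Unless a pool is named, values are from the replicated list of both pools. The lists hold no read numbers, and the sequencing depth behind a value is unknown. Each pool gave 1 list, so no SD or interval could be attached to a value, and the values of both pools are given for the members in place of one. The pool I list was the longer, with 69834 peaks on these chromosomes, against 49839 in the pool J list. The tissue label was checked against 6 genes of cortical excitatory neurons, all of which had a promoter peak, and against 6 genes of liver, muscle, heart, kidney and lung, of which 0 had one.

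Nearly the whole pathway carried H3K27ac at its promoters. A promoter peak was found at 38 of 39 members (97.4%), against 58.5% of all coding genes. The count was also 38 of 39 in the pool I list, where 58.2% of coding genes had a promoter peak, and in the pool J list, where 55.2% did. The same 38 genes had a peak in both pool lists, against 54.7% of all coding genes, and in the pseudoreplicated list, against 58.6%. Hk2 was the member without one in each of these lists. All 38 peaks reached a −log10 q of 5, which 93.7% of coding genes with a promoter peak did.

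The member peaks were also higher and wider than those of coding genes in general. Their median signal was 12.1, against 8.86 for all coding genes with a promoter peak, and their median percentile was 73.3. In the pool lists the median percentile of the members was 74.0 in pool I and 63.9 in pool J. Of the 38 genes, 17 lay above the 75th percentile (44.7%, against 25% by construction) and 1, Pdk3, lay below the 25th. The median width was 1727.5 bp, against 1139 bp for all coding genes, and 11 members (28.9%) had a peak of 2000 bp or more, against 18.3%. By role, the median percentile was 91.2 for the mitochondrial pyruvate carrier, 84.7 for the steps from aldolase to pyruvate kinase, 83.6 for glucose and monocarboxylate transport and 78.4 for phosphofructokinase and its regulators. It was 69.2 for the citric acid cycle, 67.3 for lactate dehydrogenase, 64.8 for the pyruvate dehydrogenase complex, 62.9 for hexokinase and phosphohexose isomerase, and 53.6 for the pyruvate dehydrogenase kinases. Each of these groups holds between 2 and 10 genes. The median of the hexokinase group was 67.5 in pool I and 38.6 in pool J, and that of the kinases was 61.7 in pool I and 36.2 in pool J, while the pyruvate carrier stayed high, with 89.3 in pool I and 93.6 in pool J.

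**Figure D1:**
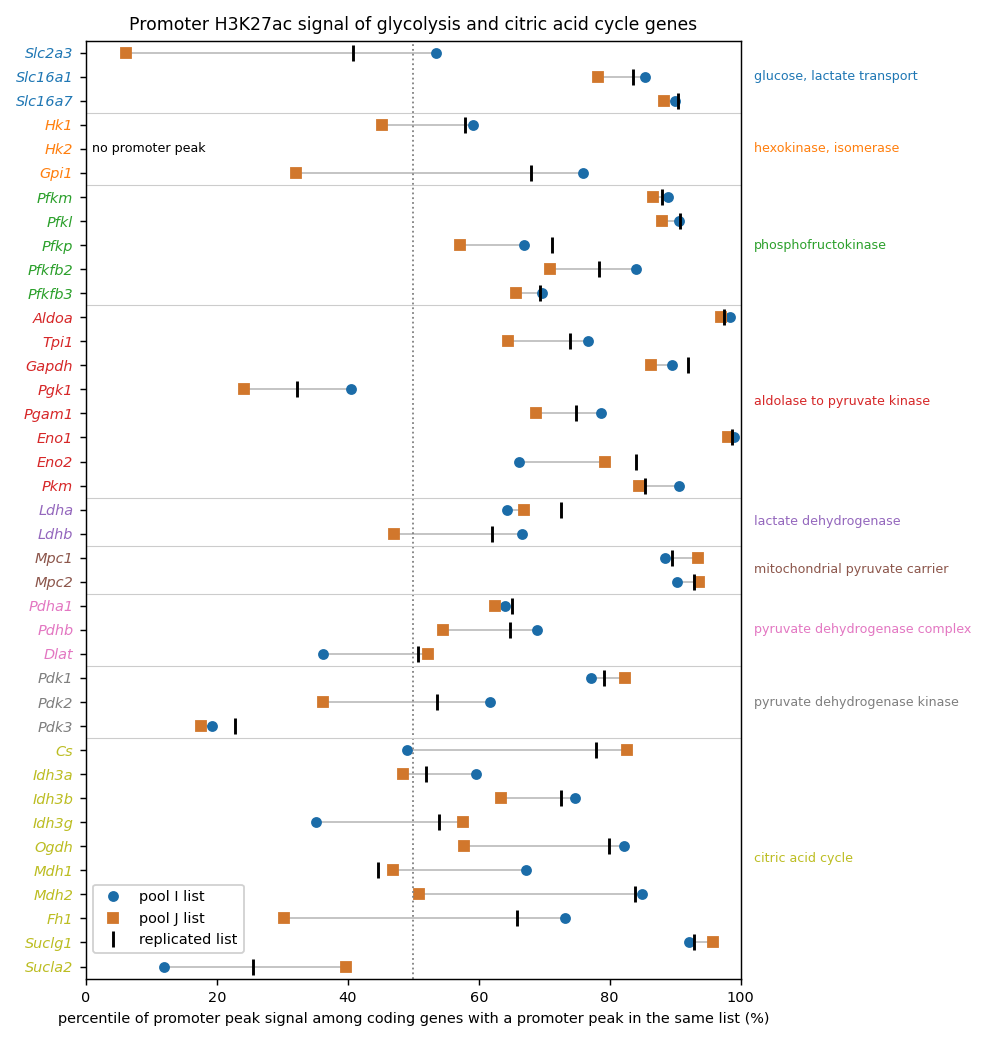
Percentile of promoter peak signal (x axis, in percent, among coding genes with a promoter peak in the same list) for each member (rows, grouped by role) in the pool I list (circles), the pool J list (squares) and the replicated list (bars); the dotted line marks the 50th percentile. Eno1 and Aldoa lie near the right edge in all 3 lists, while Slc2a3, Gpi1 and Fh1 have the widest gaps between pools.

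Glucose and lactate enter or leave cells through the transporters. Slc2a3, the neuronal glucose transporter GLUT3, had a promoter signal of 7.76 over 2532 bp. Its signal was 11.1 in the pool I list (53.4 percentile) and 3.69 in the pool J list (6.05 percentile), so its place among coding genes differed by 47.4 points, the widest gap of any member. Slc16a7, the neuronal monocarboxylate transporter MCT2, had 16.2, with 19.2 in pool I and 13.2 in pool J. Slc16a1, the more widely expressed transporter MCT1, had 14.1, with 17.4 in pool I and 11.1 in pool J. Both monocarboxylate transporters stayed above the 75th percentile in both pools. Of the 4 annotated starts of Slc16a7, only the 5′-most was within the promoter distance of a peak, and the nearest peak to any other lay 9758 bp away.

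Hexokinase traps glucose in the cell as glucose-6-phosphate. Hk1, the main brain form, had a promoter signal of 9.84 over 2951 bp, one of the widest peaks of the set, with a signal of 12.0 in pool I and 7.38 in pool J. Of its 4 annotated starts, only the most downstream one (chr10:62340542) was marked, while the others lay 1363, 1703 and 23249 bp from the nearest peak. Hk2, the insulin-responsive form of muscle and fat, had no peak at either of its 2 starts in any list. The nearest peak to Hk2, chr6:82847882-82848298, was 73428 bp from a start, had a signal of 4.17 and was also in the pool I list but not in that of pool J. Gpi1, which isomerises glucose-6-phosphate, had 11.3, with 14.9 in pool I (75.9 percentile) and 6.16 in pool J (32.0 percentile). The promoters of both hexokinases are shown because Hk1 was marked and Hk2 was not. They run from 250 bases before to 50 bases after the RefSeq start on GRCm38.p6, both on the minus strand, at chr10:62340372-62340671 for Hk1 and chr6:82774405-82774704 for Hk2. Capitals mark ACGTG, the core that bHLH factors such as the hypoxia-inducible factors recognise, or its reverse complement CACGT.
Hk1: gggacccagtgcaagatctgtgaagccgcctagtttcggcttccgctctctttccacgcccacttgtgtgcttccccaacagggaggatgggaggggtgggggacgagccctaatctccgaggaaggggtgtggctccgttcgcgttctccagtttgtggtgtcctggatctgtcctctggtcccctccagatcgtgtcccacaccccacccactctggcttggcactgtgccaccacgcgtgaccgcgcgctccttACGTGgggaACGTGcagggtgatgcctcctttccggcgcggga
Hk2: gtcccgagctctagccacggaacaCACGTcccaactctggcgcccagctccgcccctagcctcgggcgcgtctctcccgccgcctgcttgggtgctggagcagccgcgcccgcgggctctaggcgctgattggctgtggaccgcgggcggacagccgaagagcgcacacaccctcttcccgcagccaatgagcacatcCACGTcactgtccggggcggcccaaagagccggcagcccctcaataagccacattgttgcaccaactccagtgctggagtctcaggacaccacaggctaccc
Each promoter held 2 matches of ACGTG. The ratio of observed to expected CpG was 0.665 at Hk1 and 0.757 at Hk2, so the ratio was not lower at the unmarked promoter.

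Phosphofructokinase commits glucose to glycolysis, and the bifunctional enzymes set the fructose-2,6-bisphosphate that stimulates it. All 5 genes had a promoter peak above the 65th percentile. Pfkp, the platelet-type subunit that is also abundant in brain, had a signal of 11.8, with 13.2 in pool I and 8.53 in pool J. Pfkl, the liver-type subunit, had 16.4, with 19.5 in pool I and 13.1 in pool J, and Pfkm, the muscle-type subunit, had 15.4, with 18.7 in pool I and 12.8 in pool J. Pfkp was therefore the lowest of the 3 subunit genes in both pools. A second promoter of Pfkm, upstream of the higher one, carried a peak of 8.97 at chr15:98092757-98094263. Pfkfb3 had 11.5 at its highest start, with 13.7 in pool I and 9.46 in pool J, and a further peak of 8.36 at an upstream start (chr2:11552852-11554332). The 2878 bp peak counted for Pfkfb2, with a signal of 13.0 (16.9 in pool I and 10.1 in pool J), had its summit 1526 bp upstream of the nearest Pfkfb2 start and also covered a start of the deubiquitinase gene Yod1, so its signal need not belong to Pfkfb2.

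The steps from aldolase to pyruvate kinase, in which glycolysis yields its ATP, held the 2 member promoters with the highest signal. Eno1, the enolase of most tissues, had the highest signal of all members, 23.6 over 2311 bp (98.7 percentile), with 29.1 in pool I and 18.7 in pool J. Aldoa, the muscle-type aldolase that is also expressed in brain, had 21.1 (97.5 percentile), with 26.9 in pool I and 17.4 in pool J. These were the highest 2 members in every list. This peak covered the 5′-most of the 3 annotated Aldoa starts, and a further peak of 20.3 lay at the other starts and reached into the gene. Another coding gene annotated under the symbol Aldoa, which begins upstream, had a peak of 3.83 and is not counted here. Gapdh, which oxidises glyceraldehyde-3-phosphate, had 16.9, with 18.9 in pool I and 12.8 in pool J, and the widest member peak of the replicated list, 4650 bp. In the pool I list the Gapdh peak was 5574 bp wide, while in the pool J list it was divided into peaks of 1907 and 2392 bp. Pkm, whose transcripts encode the pyruvate kinases of muscle and brain, had 14.6 over 3100 bp, with 19.5 in pool I and 12.3 in pool J.

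Pgam1, the phosphoglycerate mutase of brain, had 12.35, with 15.6 in pool I and 9.83 in pool J, and Tpi1, triose phosphate isomerase, had 12.2, with 15.1 in pool I and 9.32 in pool J. The lowest gene of these steps was Pgk1, the X-linked phosphoglycerate kinase, with 6.76 (32.2 percentile), and with 9.21 in pool I and 5.50 in pool J. Its mark lay in peaks of 6.76 downstream and 6.21 upstream of the start, at nearly the same height. Eno2, the neuron-specific enolase, had 14.2 over 2722 bp (84.0 percentile), with 13.1 in pool I (66.2 percentile) and 11.3 in pool J (79.2 percentile). The Eno2 peak was thus lower than that of Eno1 in both pools. The promoters of both enolases are shown for this contrast, Eno2 at chr6:124769624-124769923 on the minus strand and Eno1 at chr4:150236947-150237246 on the plus strand. Neither holds ACGTG, so neither has capitals.
Eno2: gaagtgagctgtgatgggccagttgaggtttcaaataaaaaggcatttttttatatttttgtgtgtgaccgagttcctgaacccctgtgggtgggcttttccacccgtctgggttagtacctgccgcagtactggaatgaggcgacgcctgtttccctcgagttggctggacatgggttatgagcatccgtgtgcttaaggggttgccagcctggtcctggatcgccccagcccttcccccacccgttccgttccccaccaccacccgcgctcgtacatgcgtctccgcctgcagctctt
Eno1: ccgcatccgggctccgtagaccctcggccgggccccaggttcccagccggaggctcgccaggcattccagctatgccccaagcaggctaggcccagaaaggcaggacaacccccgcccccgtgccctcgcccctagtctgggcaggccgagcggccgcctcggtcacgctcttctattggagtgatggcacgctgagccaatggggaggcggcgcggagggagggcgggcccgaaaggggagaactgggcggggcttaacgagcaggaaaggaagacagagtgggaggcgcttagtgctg
The Eno1 promoter held 3 matches of GGGCGG, the GC box bound by Sp factors, and 2 of CCAAT. The Eno2 promoter held 0 of either and was the only one of the 36 member promoters with TATAAA on either strand, there as its reverse complement far upstream of the start.

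**Figure D2:**
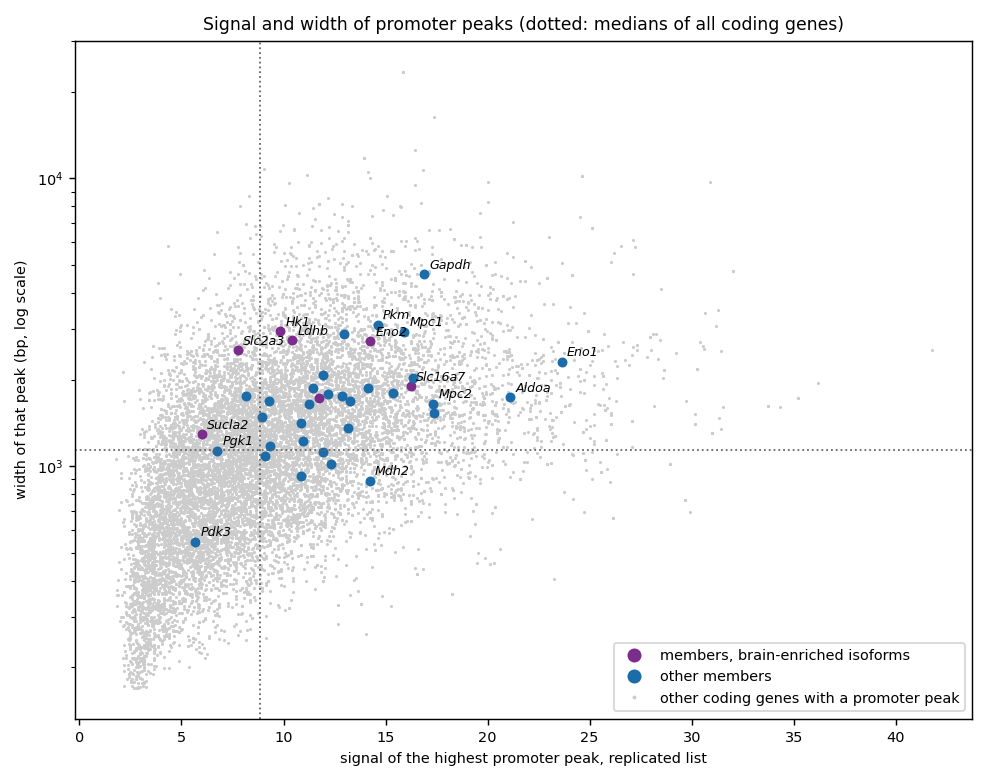
Signal (x axis, caller's units) and width (y axis, bp, log scale) of the highest promoter peak of each coding gene in the replicated list, with brain-enriched members in purple, other members in blue and all other coding genes in grey; dotted lines mark the medians of all coding genes, 8.86 and 1139 bp. Eno1 and Aldoa stand at the right, Gapdh at the top and Pdk3 at the lower left of the members.

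Lactate dehydrogenase is built of the B and A subunits. Ldhb, the subunit of heart and of oxidative neurons, had a promoter signal of 10.4 over 2740 bp, with 13.1 in pool I and 7.52 in pool J. Ldha, the subunit of muscle and of glycolytic cells, had 12.0 over 2081 bp, with 12.7 in pool I and 9.63 in pool J. The order of the subunits differed between the pools: Ldhb was slightly higher in pool I, at 1.03 times the signal of Ldha, and lower in pool J, at 0.781 times. The promoters are shown because their numbers of ACGTG differ, Ldhb at chr6:142507908-142508207 on the minus strand and Ldha at chr7:46845554-46845853 on the plus strand, with capitals as above. CACGTG contains ACGTG on both strands, so each one counts as 2 overlapping matches.
Ldhb: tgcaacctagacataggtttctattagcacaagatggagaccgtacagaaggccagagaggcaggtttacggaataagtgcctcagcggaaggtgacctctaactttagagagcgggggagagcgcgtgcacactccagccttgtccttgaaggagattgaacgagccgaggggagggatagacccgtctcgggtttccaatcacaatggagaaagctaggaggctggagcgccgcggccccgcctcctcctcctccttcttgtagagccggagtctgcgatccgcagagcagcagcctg
Ldha: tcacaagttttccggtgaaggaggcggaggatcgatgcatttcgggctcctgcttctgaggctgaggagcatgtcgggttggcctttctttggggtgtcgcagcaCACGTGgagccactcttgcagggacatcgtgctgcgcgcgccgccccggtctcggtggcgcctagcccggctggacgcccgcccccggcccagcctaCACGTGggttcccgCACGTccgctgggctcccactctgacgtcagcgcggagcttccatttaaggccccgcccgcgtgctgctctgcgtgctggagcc
Ldhb held 0 matches of ACGTG and Ldha held 5 over both strands, 4 of them in 2 copies of CACGTG. Ldha also held TGACGTCA, the cyclic AMP response element, and 3 matches of GGGCGG.

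Pyruvate enters mitochondria through a carrier of 2 subunits, and both genes were strongly marked in both pools. Mpc2 had a signal of 17.3 (92.8 percentile), with 19.4 in pool I and 15.1 in pool J, and Mpc1 had 15.9 over 2936 bp (89.6 percentile), with 18.4 in pool I and 15.0 in pool J. The higher Mpc2 peak lay upstream of the start and was shared with the neighbouring gene Dcaf6, so its signal need not belong to Mpc2. A peak of 8.37 lay downstream of the Mpc2 start. The subunits of the pyruvate dehydrogenase complex, which makes acetyl-CoA, were near the middle of the range. Of the E1 subunits, Pdha1 had 10.9, with 12.7 in pool I and 9.09 in pool J, and Pdhb had 10.8, with 13.5 in pool I and 8.26 in pool J. Dlat, the E2 acetyltransferase, had 8.94. Dlat had 8.60 in pool I (36.3 percentile) and 7.99 in pool J (52.2 percentile).

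The pyruvate dehydrogenase kinases, which switch the complex off, spanned most of the range. Pdk1, known as a target of hypoxia-inducible factor, had 13.1 (79.2 percentile), with 15.1 in pool I and 11.9 in pool J. Pdk2, the kinase of most tissues including brain, had 9.30, with 12.3 in pool I (61.7 percentile) and 6.56 in pool J (36.2 percentile). Pdk3 was the lowest member of the replicated list, with 5.66 over 546 bp (22.8 percentile), and had 6.34 in pool I and 4.82 in pool J. In the pool lists Sucla2 was lowest in pool I and Slc2a3 in pool J. The 3 kinase genes kept the same order in both pools.

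In the citric acid cycle all 10 members had a promoter peak, and all of these were under 2000 bp wide in the replicated list. In the pool I list the peaks of Cs (2536 bp), Mdh1 (2344 bp) and Idh3g (2192 bp) were wider. Suclg1, the common alpha subunit of succinyl-CoA ligase, was highest, with 17.4 (92.9 percentile), 20.3 in pool I and 16.4 in pool J. Sucla2, the ATP-specific beta subunit that is enriched in brain, was lowest, with 6.0 (25.6 percentile), 5.24 in pool I and 6.86 in pool J, where only Fh1 among these genes was lower. Subunits of the same enzyme thus lay near opposite ends of the group. The 3 subunits of NAD-dependent isocitrate dehydrogenase had 12.0 (Idh3b), 9.34 (Idh3g) and 9.07 (Idh3a). Idh3b had 14.7 in pool I and 9.23 in pool J, and Idh3a had 12.0 in pool I and 7.64 in pool J. Idh3g had 8.46 in pool I (35.2 percentile) and 8.54 in pool J (57.6 percentile), so an equal signal ranked lower in the pool I list, whose signals were higher as a whole. Ogdh, the E1 subunit of the oxoglutarate dehydrogenase complex, had 13.3, with 16.4 in pool I (82.1 percentile) and 8.55 in pool J (57.7 percentile).

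Within the cycle, Fh1, Mdh2 and Cs had the widest gaps between pools. Cs, which forms citrate, had 12.9, with 10.4 in pool I (49.1 percentile) and 11.9 in pool J (82.7 percentile). Fh1, fumarate hydratase, had 11.0, with 14.3 in pool I (73.2 percentile) and 6.02 in pool J (30.2 percentile). Mdh2, the mitochondrial malate dehydrogenase, had 14.2 over 892 bp, with 17.2 in pool I (84.9 percentile) and 7.92 in pool J (50.9 percentile). Cs therefore ranked lower in pool I than in pool J, whereas Fh1 and Mdh2 ranked higher in pool I. At Mdh2 the highest peak was downstream of the start in pool I, whereas in pool J the upstream peak of 7.92 and the downstream peak of 7.86 were nearly equal. Mdh1, the cytosolic malate dehydrogenase of the malate-aspartate shuttle, had 8.16, with 13.3 in pool I and 7.5 in pool J.

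In all, 10 of 38 members (26.3%) had percentiles over 20 points apart between the pools, against 14.3% of coding genes with a peak in these lists. They were Gpi1, Pdk2, Slc2a3, Ogdh, Mdh1, Mdh2 and Fh1, which ranked higher in pool I, and Cs, Idh3g and Sucla2, which ranked higher in pool J. The median gap was 11.2 points for the members and 7.78 points for all coding genes. The pools differ in animals and in the length of their lists, and these cannot be told apart.

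Which isoform of a step counts as brain-enriched was set from textbook knowledge and not from these data, and the counts depend on that choice. The isoforms so named did not as a rule carry the higher promoter peak. Of 9 pairs of isoforms for the same step, 3 had the higher signal at the brain-enriched isoform (Hk1 over Hk2, Slc16a7 over Slc16a1 and Sucla2 over Suclg2) and 6 had it at the other isoform. Pfkp was paired with both Pfkl and Pfkm, and both of these pairs are among the 6, so the 9 pairs are not all separate steps. The count was 4 of 9 in pool I and 3 of 9 in pool J, and 8 of 9 pairs had the same order in all 3 lists, with Ldhb and Ldha as the exception. Hk2, which has no peak, was counted as lower than Hk1. In the 8 pairs in which both genes had a peak, the brain-enriched isoform was higher in 2, in 3 in pool I and in 2 in pool J. The brain-enriched isoforms had a median signal of 10.1 over 8 genes, all with a peak, and the others had 15.9 over the 8 of 9 genes with a peak. In pool I the median percentile was 62.7 for the brain-enriched isoforms and 88.3 for the others, and in pool J it was 46.1 for the brain-enriched isoforms and 87.3 for the others. In bulk tissue a mark on fewer cells of a type and a weaker mark per cell cannot be told apart, and the share of neurons and glia was not measured.

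In the replicated list the widest difference in signal was at aldolase. Aldoc, the brain isoform found mainly in astrocytes, had 4.37 over 499 bp (12.6 percentile), against 21.1 for Aldoa, a ratio of 0.207. This Aldoc peak lay upstream of the start, and the replicated peak that covered the start had 3.71 over 1276 bp. Aldoc had 6.66 in pool I and 4.43 in pool J, in both at a peak that covered the start. Slc2a3 had 0.463 times the signal of Slc2a1, the glucose transporter GLUT1 of the blood-brain barrier and of glia. Slc2a1 had 16.7, with 18.2 in pool I and 14.8 in pool J. The ratio of Slc2a3 to Slc2a1 was 0.607 in pool I and 0.249 in pool J. In pool J this was just below the ratio of Aldoc to Aldoa, 0.254. Eno2 had 0.603 times the signal of Eno1. Pfkp had 0.718 times that of Pfkl and 0.765 times that of Pfkm. Where both had a peak and the brain-enriched isoform was higher, Slc16a7 had 1.15 times the signal of Slc16a1, and Sucla2 had 1.21 times that of Suclg2, the GTP-specific beta subunit, which had 4.95.

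Width gave another order. In the 8 pairs in which both genes had a peak, that of the brain-enriched isoform was the wider one in 5, in 4 in pool I and in 6 in pool J, so pool I was evenly split. With Hk1 counted as wider than the unmarked Hk2, the brain-enriched isoform was wider in 6 of 9 pairs. The median width was 2212.5 bp at the brain-enriched isoforms and 1833 bp at the others. Eno2 had 2722 bp, against 2311 bp at Eno1, and Ldhb had 2740 bp, against 2081 bp at Ldha, so both were lower but wider in the replicated list. Neither order of width held in both pools, since Eno2 had 2752 bp in pool I, against 3471 bp at Eno1, and Ldhb had 1732 bp in pool J, against 2069 bp at Ldha. The highest Slc2a3 peak was 2.28 times as wide as that of Slc2a1, with 2532 bp against 1110 bp. Slc2a1, however, had further peaks of 347 and 701 bp close downstream, and Slc2a3 had 304 and 171 bp upstream. These widths are of single peaks and depend on where the peak caller divided the mark. Aldoc and Pfkp were both lower and narrower than the isoforms they were paired with, in the replicated list. In pool J the Pfkp peak, at 1590 bp, was wider than those of Pfkl (804 bp) and Pfkm (1076 bp). A further pool J peak of 399 bp lay downstream at Pfkl, and one of 370 bp lay upstream at Pfkp.

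**Figure D3:**
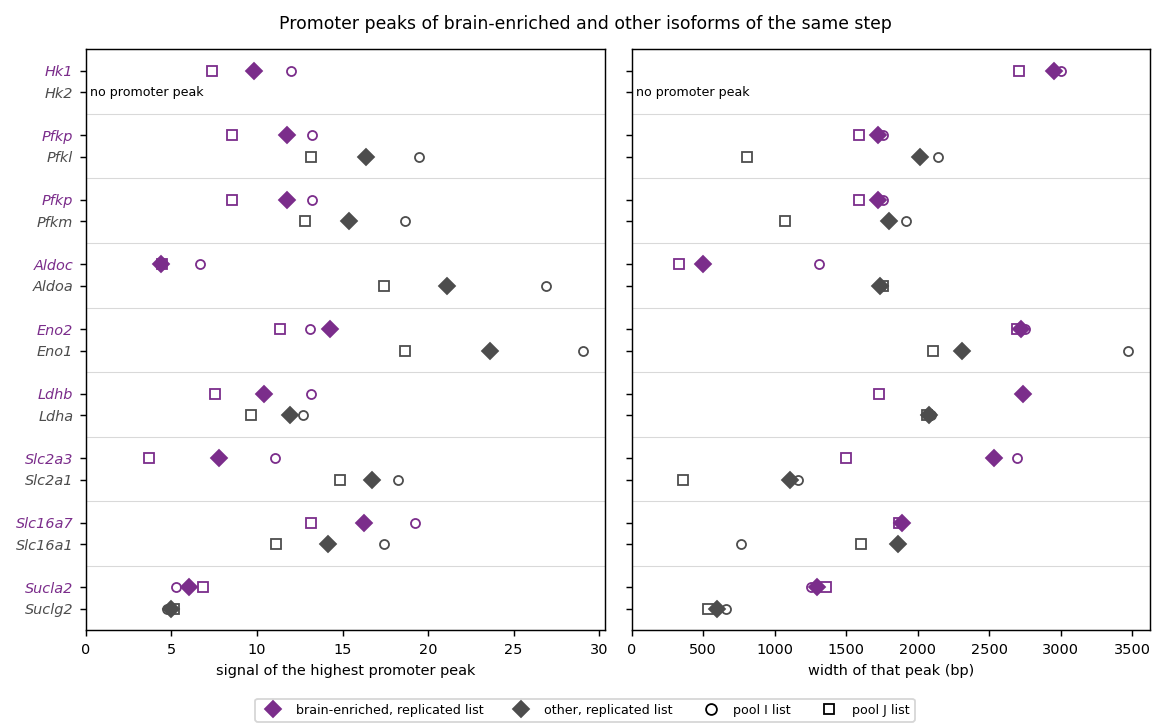
Signal (left, caller's units) and width (right, bp) of the highest promoter peak for 9 isoform pairs, with the brain-enriched isoform (purple) above the other isoform (grey); filled diamonds are the replicated list, open circles pool I and open squares pool J. Hk2 has no promoter peak, and the largest signal gap is that of Aldoc (4.37) and Aldoa (21.1).

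The member peaks mostly had their summit inside the gene. The summit lay downstream of the nearest start in 29 of 38 members (76.3%), against 66.8% of coding genes with a promoter peak, and the median summit was 176 bp downstream, against 128 bp for all coding genes. In 27 of 38 (71.1%, against 52.1%) it lay 100 to 600 bp downstream, the place of the first nucleosomes after the start. At 9 members (23.7%, against 20.5%), namely Pfkp, Pgk1, Pgam1, Pdhb, Pdk3, Mpc2, Idh3a, Idh3g and Mdh2, peaks flanked a start that no peak covered. More than 1 promoter peak was present at 18 members (47.4%, against 42.5%). The peak also lay near the start of another coding gene at 5 members (13.2%, against 19.7%), namely Pfkfb2, Mpc2, Idh3g, Mdh1 and Mdh2. Of the 75 annotated starts of the marked members, 68 lay within 1000 bp of a peak (90.7%, against 91.4%). Every marked gene has at least 1 marked start by definition, so these shares do not measure alternative starts alone.

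**Figure D4:**
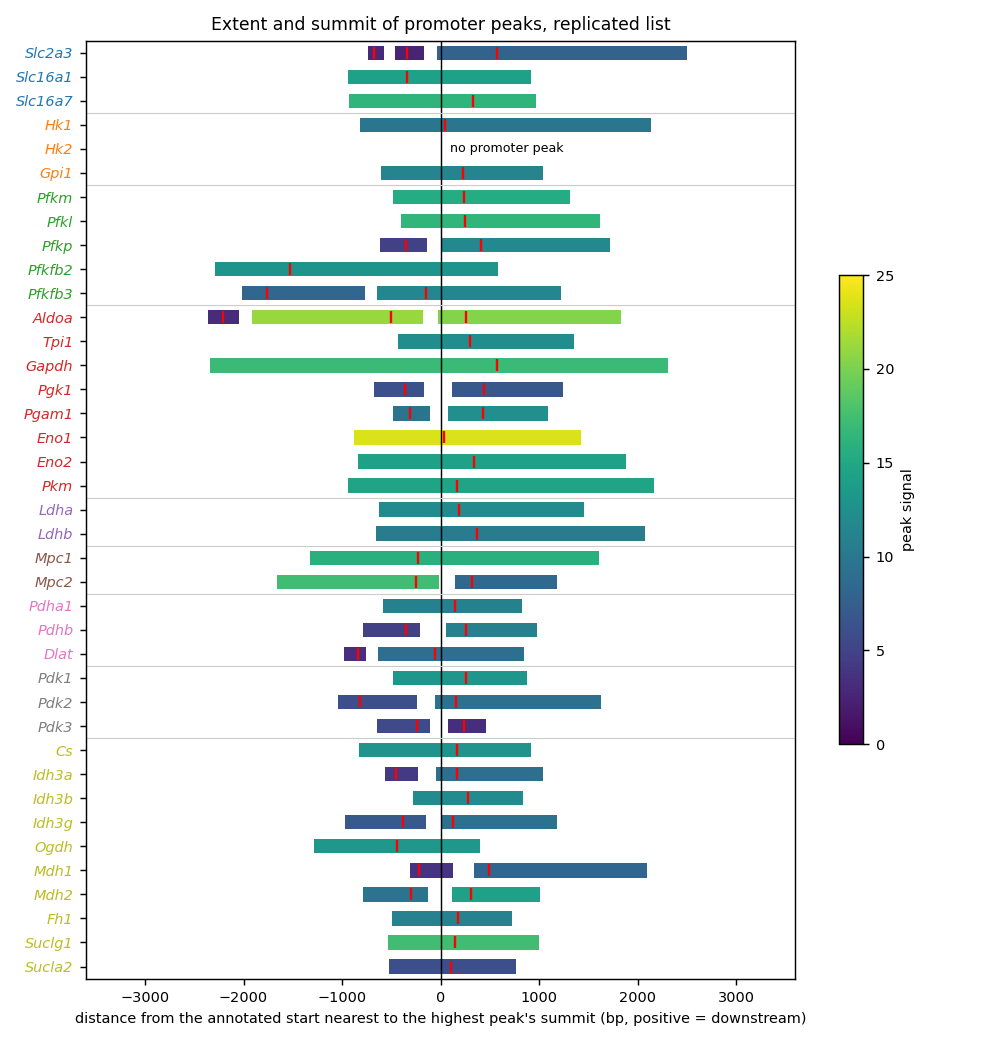
Extent (bars) and summit (red ticks) of the replicated promoter peaks of each member, as distance in bp from the annotated start nearest to the highest peak's summit, positive into the gene; colour gives peak signal. Gapdh has the widest bar (4650 bp), and several members such as Pgk1 and Mdh2 show separate bars on either side of the start.

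Distal peaks, those outside every promoter window, were assigned to the coding gene with the nearest start within 100 kb; this gives a neighbour, and no target was tested. There were 76 such peaks at 26 of 39 members (66.7%, against 39.7% of all coding genes), and the mean number per gene was 1.95 for the members and 1.85 for all coding genes. At least 5 distal peaks were assigned to 4 members (10.3%, against 12.2%), with 8 each at Eno1, Pfkp and Pkm and 6 at Slc2a3. Counting every distal peak within 100 kb, 32 of 39 members had at least 1 (82.1%, against 72.6%). Of the 76 peaks, 34 lay in introns, 9 in exons and 33 outside the gene. Their median signal was 3.59, against 3.37 for all 52300 distal peaks, and 47.4% of them lay in the lists of both pools, against 46.2%. The members thus had a distal peak more often than coding genes as a whole, many of which have no promoter peak. Of the 12719 coding genes with a promoter peak, 6844 also had a distal peak. The mean number over all genes was similar, as was the median signal of the peaks. Among genes with any distal peak the members had fewer, 76 at 26 members against 40278 at 8632 coding genes.

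**Figure D5:**
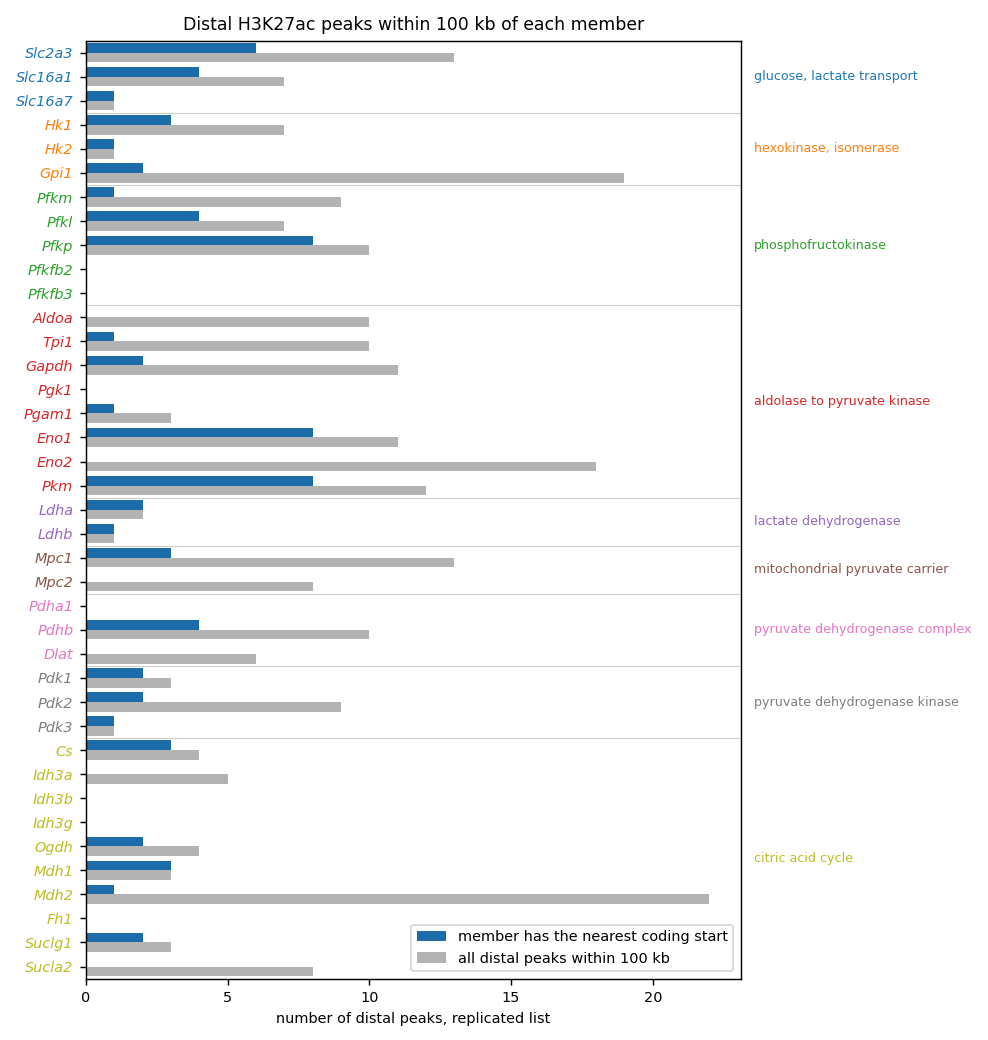
Number of distal peaks (x axis, replicated list) for each member, counting those for which it has the nearest coding start within 100 kb (blue) and all distal peaks within 100 kb (grey). Eno1, Pfkp and Pkm have 8 nearest peaks each, while Mdh2 has 22 peaks in reach and is nearest to 1.

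Slc2a3 had the strongest distal peak of the set. The peak at chr6:122763198-122765910, 2713 bp wide and 20453 bp upstream of the start used here, had a signal of 10.7 (99.0 percentile of distal peaks), against 7.76 at the Slc2a3 promoter. A second peak at chr6:122761147-122762275 had 9.06. Both were in the lists of both pools and lay within the annotated extent of Slc2a3, whose longest transcripts begin upstream of the basic-set start. Pdk3 was the other gene with a distal peak above its promoter, 9.54 at chrX:93888979-93889965, against 5.66. Among members with both kinds of peak these were 2 of 25 (8%), against 15.9% of coding genes.

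Further strong distal peaks lay near marked promoters. A peak of 9.70 lay 5822 bp upstream of Ldha (chr7:46838429-46840017). One of 7.26 lay 5542 bp upstream of Eno1 (chr4:150230318-150231410), and one of 6.56 lay 28541 bp downstream of the Slc16a1 start (chr3:104667209-104668414). These were all in the lists of both pools. At Pfkl a peak of 7.91 covered an exon (chr10:78001008-78001819), and 11 of the 76 distal peaks, this one included, were within 1000 bp of a start in the full annotation. At Eno1 all 8 distal peaks were in the pool I list, and 3 were in that of pool J. At Slc16a1 all 4 were in both.

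The member promoters were of the CpG-rich kind. RefSeq promoter sequences were found for 36 of 39 members, all except Slc2a3, Slc16a7 and Idh3a. For a gene with a promoter peak, the RefSeq start nearest to the summit of its highest peak was used. For a gene without one, such as Hk2, it was the start nearest to the 5′-most annotated start. Promoters with and without a peak were thus chosen by different rules. The ratio of observed to expected CpG exceeded 0.6 in 33 of 36 (91.7%), with Pfkfb2, Pfkm and Gapdh below, against 51.2% of 16404 coding promoters, 76.3% of those with a promoter peak and 12.8% of those without. ACGTG was present on either strand in 15 of 36 (41.7%), against 21.2% of all promoters and 25.8% of those with a peak. CACGTG was present in 5 (13.9%, against 8.21% of all promoters and 10.3% of those with a peak), at Ldha, Ogdh, Pdk2, Pfkfb3 and Slc16a1. GGGCGG was present in 25 (69.4%), against 49.3% of all promoters and 67.6% of those with a peak, and CCAAT in 17 (47.2%, against 38.4% and 37.5%, in the same order). TATAAA was present in 1 (2.78%, against 12.7% and 6.29%), and TGACGTCA in 2, Ldha and Mdh2 (5.56%, against 2.45% and 3.49%). AAGGTCA, the element of estrogen-related receptors, was present in Ogdh and Tpi1 (5.56%, against 3.85% and 2.72%), and the palindromic consensus of NRF1, a factor of nuclear genes for mitochondrial proteins, in Pgam1 and Sucla2 (5.56%, against 7.03% and 11.1%). These are letter matches in a window of 300 bases and no record of binding.

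Genes of the same pathway outside the set were marked as completely, and isoforms of other tissues mostly were not. All 22 further pathway genes had a promoter peak, against 58.5% of all coding genes. The median width of their peaks was 1014 bp, against 1139 bp for all coding genes with a promoter peak, so they were not wider. The median percentile of their signal was 57.7, with 51.3 in pool I and 55.8 in pool J. Toward the high end was the succinate dehydrogenase subunit gene Sdhb, with 17.8. At the low end were the phosphatase gene Tigar, with 4.17, and Pcx, the pyruvate carboxylase found mainly in astrocytes, with 4.32. Of 18 isoforms typical of other tissues, 4 had a promoter peak (22.2%, against 58.5%), all below the median signal of coding genes. Pfkfb4, the bifunctional enzyme of testis and hypoxic cells, had 5.96, Pdk4, the kinase of fasted muscle and heart, had 5.66, and Eno3, the muscle enolase, had 4.25. The Eno3 peak lay 716 bp or more upstream, near Pfn1. Among the 14 without a peak were Hk3, Pgam2, Pgk2, Gapdhs, Pklr, Ldhc, Pdha2, Pfkfb1, Slc2a2, Slc2a4, Slc2a5, Slc16a3 and Slc16a8, which include the liver, muscle and testis forms of steps that the members carry out in brain.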

How the data were processed

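H3K27ac ChIP-seq was measured in 4 libraries of 2 pools. The labels' assembly is mm10. The authors deposited peak lists with 10 columns, in which the signal of each peak, its −log10 q and its summit offset are the values of their peak caller. Per the labels' file descriptions, the replicated list and a pseudoreplicated list (76359 peaks) came from the alignments of both pools, and 1 list from that of each pool alone, so the technical libraries have no values of their own. For aligner, caller and signal normalization the sources used here give nothing. Reads with CAST/EiJ variants may map less well, which the lists do not show. Signal was used only within a list.

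Peaks were joined to 34568 coding and long non-coding genes with 55728 starts (GENCODE vM21 basic) in Python 3.11.15 with pandas 2.3.3 and numpy 2.4.6, and the joins were tested on simulated peaks. Overlap of 1 bp counted. Sequences are RefSeq's on GRCm38.p6, and motifs were searched on both strands. The genes named are all members, all genes of the isoform pairs, isoforms of other tissues with a peak, and neighbours sharing a member's peak; Sdhb, Tigar, Pcx, the isoforms without a peak and single distal peaks were named after their values were seen. The members and lists were chosen with earlier results of these data known, so no set was tested. Another gene with the symbol Aldoa was left out. Some genes of the lists are counted but not reported by name here. Alternatives were the peak list, a −log10 q of 5, windows of 500 and 2500 bp, 1 start per gene, 50% overlap, a distance of 50 kb, and width or summed signal.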

Additional observations from a re-analysis of the deposited data

How the results depend on the processing

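The count of members with a promoter peak stayed at 38 in every list, with a −log10 q of at least 5 and with windows of 500 and 2500 bp. It was 37 with the 5′-most start alone, which lost Hk1, and 37 when 50% of the peak had to lie inside the window, which lost Gapdh. The median percentile of the members was 63.9 in the pool J list alone and otherwise between 66.7 and 74.8. The median number of distal peaks per member was 1, but 0 with a −log10 q of at least 5 and 6 when all peaks within 100 kb were counted. The brain-enriched isoform was the larger in 6 of 9 pairs with width in place of signal, against 3 with signal, Hk2 without a peak being counted as lower in both. Isoforms of other tissues with a peak numbered 2 with a window of 500 bp, where Eno3 was among those lost, and 6 with 2500 bp, which added Pfkfb1 and Slc16a8. The 22 further pathway genes kept their peaks under all of these settings. Of 398 values of single genes under the alternatives, 84 moved by more than the spread of the pools and 314 did not. The causes of these shifts were not tested. Depth is unknown, so a gene without a peak is one where none was called. No paired analysis was possible because each pool gave 1 list, in which its technical libraries are merged, and no test was run between the pools.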

Other observations

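The 4 members on the X chromosome were among the lower ones in promoter signal. Pdha1 was at the 65.0 percentile, Idh3g at 53.9, Pgk1 at 32.2 and Pdk3 at 22.8, with a median of 43.0, against 76.4 for the 34 autosomal members with a promoter peak. The median was 37.8 for the X-linked members and 76.3 for the autosomal ones in the pool I list, and 40.9 and 66.3 in the pool J list. The same held for coding genes as a whole, where the 384 X-linked genes with a promoter peak had a median percentile of 28.8, against 50.9 for the 12335 autosomal ones. In the replicated list all of these members except Pdk3 lay above the median of X-linked genes. In the pool J list Pgk1, at 24.2, also lay below the X-linked median of 27.1. This grouping was chosen after the values were seen. The animals were female, and the lists do not separate the copies of the X chromosome.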
